A study of Mus musculus with 6 samples.

Results

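The genes of the cell cycle machinery described here are 49 symbols among the 24982 genes of the liver count tables, taken from a list of replication and mitotic genes by name. All 49 were found in each of the 6 tables. They were split into 15 replication genes of S phase, 26 mitotic genes, and 8 regulators of the step into S phase. Liver RNA was compared between 3 libraries of mice fed fat-rich food and given sugar water (high fat high sugar) and 3 libraries of mice kept on chow. All were male C57BL/6NJ mice, with 54 weeks on the diets per the series text. The labels name no genotype or other treatment, no age apart from the weeks on diet, and no tumour or non-tumour part of the liver. Each library counts polyadenylated RNA of a liver sample, so it mixes hepatocytes with every other cell type of the organ, and fewer cells of a type and less RNA per cell cannot be told apart in such a sample. The deposited tables of both diets carry different name stems, so handling and diet cannot be told apart.

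As background, a cell licenses its origins of replication in G1, when Cdc6 and Cdt1 load the Mcm2 to Mcm7 helicase onto DNA. D-type and E-type cyclins with their kinases then inactivate the retinoblastoma proteins, which frees E2F factors to raise the genes for replication and for nucleotide supply. Mitotic genes come up later, in G2 and M, through the MuvB complex with B-Myb and FoxM1, while the DREAM complex holds both sets down in resting cells. MuvB contacts a promoter element named the cell cycle genes homology region (CHR), often near CCAAT boxes that bind NF-Y, and E2F factors contact their own element. Most hepatocytes of an adult liver are out of the cycle and re-enter it after tissue loss or injury, whereas immune, endothelial, bile duct and stellate cells can also divide in a diseased liver.

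The promoters of the members were read for these elements in the RefSeq windows of GRCm38.p6, which run from 250 bases before to 50 bases after each gene's start. A window was found for 39 of the 49 members and for 18203 genes of the tables. The letters searched on both strands were TTCCCGC and TTGGCGC for E2F, TTTGAA and TTCGAA for the CHR, and CCAAT. Windows of 6 members are shown over the 250 bases before the start, 5′ to 3′ along the gene's own strand, with each match in capitals. Mcm5 and Mcm6 are helicase subunits whose windows held E2F letters and no CHR letters, and Top2a and Ccnb2 are mitotic genes with the reverse. E2f8 and Mki67 held both kinds.
Mcm5 (chr8:75109259-75109508, plus strand): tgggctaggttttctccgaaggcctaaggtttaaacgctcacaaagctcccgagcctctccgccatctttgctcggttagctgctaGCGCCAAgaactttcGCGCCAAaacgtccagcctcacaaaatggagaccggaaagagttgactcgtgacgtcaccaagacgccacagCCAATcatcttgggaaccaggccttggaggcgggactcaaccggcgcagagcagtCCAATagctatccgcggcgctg
Mcm6 (chr1:128359706-128359955, minus strand): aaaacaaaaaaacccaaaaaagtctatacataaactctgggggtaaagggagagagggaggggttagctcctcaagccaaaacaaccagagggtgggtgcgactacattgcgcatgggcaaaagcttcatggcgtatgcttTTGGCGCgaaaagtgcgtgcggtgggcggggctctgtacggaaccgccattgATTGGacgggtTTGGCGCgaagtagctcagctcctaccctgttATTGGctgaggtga
E2f8 (chr7:48881597-48881846, minus strand): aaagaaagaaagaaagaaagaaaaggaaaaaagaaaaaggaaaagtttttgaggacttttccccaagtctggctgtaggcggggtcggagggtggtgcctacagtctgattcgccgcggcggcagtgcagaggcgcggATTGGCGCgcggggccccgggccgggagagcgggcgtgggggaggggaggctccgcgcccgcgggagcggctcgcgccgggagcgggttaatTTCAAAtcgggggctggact
Mki67 (chr7:135716380-135716629, minus strand): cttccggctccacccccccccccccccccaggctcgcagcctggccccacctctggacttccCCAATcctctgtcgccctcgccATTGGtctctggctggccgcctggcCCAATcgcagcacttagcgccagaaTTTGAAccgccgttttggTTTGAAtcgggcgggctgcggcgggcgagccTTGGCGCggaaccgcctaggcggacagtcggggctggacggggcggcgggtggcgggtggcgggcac
Top2a (chr11:99024190-99024439, minus strand): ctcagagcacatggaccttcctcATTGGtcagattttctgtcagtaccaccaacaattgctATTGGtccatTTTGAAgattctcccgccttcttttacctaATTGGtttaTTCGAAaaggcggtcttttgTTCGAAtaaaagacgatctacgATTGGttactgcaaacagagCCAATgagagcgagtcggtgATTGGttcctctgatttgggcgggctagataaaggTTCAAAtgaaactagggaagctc
Ccnb2 (chr9:70421555-70421804, minus strand): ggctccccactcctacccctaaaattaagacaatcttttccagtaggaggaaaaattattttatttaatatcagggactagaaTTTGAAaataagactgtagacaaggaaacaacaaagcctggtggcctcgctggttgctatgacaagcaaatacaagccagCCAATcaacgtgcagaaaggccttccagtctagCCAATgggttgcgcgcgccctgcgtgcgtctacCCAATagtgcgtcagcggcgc
The capitals GCGCCAA for E2F, TTCAAA for the CHR and ATTGG for a CCAAT box are matches on the opposite strand, and in E2f8 the CCAAT match shares bases with the E2F match, which makes 1 capital run.

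Over the classes, E2F letters were present in 8 of 13 replication windows (61.5%) and in 3 of 21 mitotic windows (14.3%), against 9.93% of all windows. CHR letters were present in 17 of 21 mitotic windows (81.0%) and in 2 of 13 replication windows (15.4%), against 19.4% of all windows. CCAAT was present in 19 of 21 mitotic windows (90.5%) and in 9 of 13 replication windows (69.2%), against 42.1% of all windows. All 17 mitotic windows with CHR letters also held CCAAT, a pair found in 8.99% of all windows. CHR letters were present in 8 of 10 mitotic windows of genes that were higher and in 9 of 11 of the others. With the 50 bases after the start left out, E2F letters were present in 6 of 13 replication windows (46.2%), against 8.26% of all windows. The mitotic count for E2F stayed at 3 of 21. CHR letters were then present in 9 of 21 mitotic windows, against 17.5% of all windows. They were then in 7 of 10 windows of genes that were higher (70.0%) and in 2 of 11 of the others (18.2%), so the split depended on the window. Of the 10, only Mki67, Top2a and Cdk1 passed the filter on low counts, described below, through the chow libraries alone. The 11 others include Ttk, which was not tested for diet. The split is therefore a description and not a link between these letters and diet. The 5 G1/S regulators with a window held E2F letters in 2, CHR letters in 1 and CCAAT in 2. Tk1 and Tyms held none of the letters. These are matches of letters in a fixed window and are not shown to be bound in liver.

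**Figure D1:**
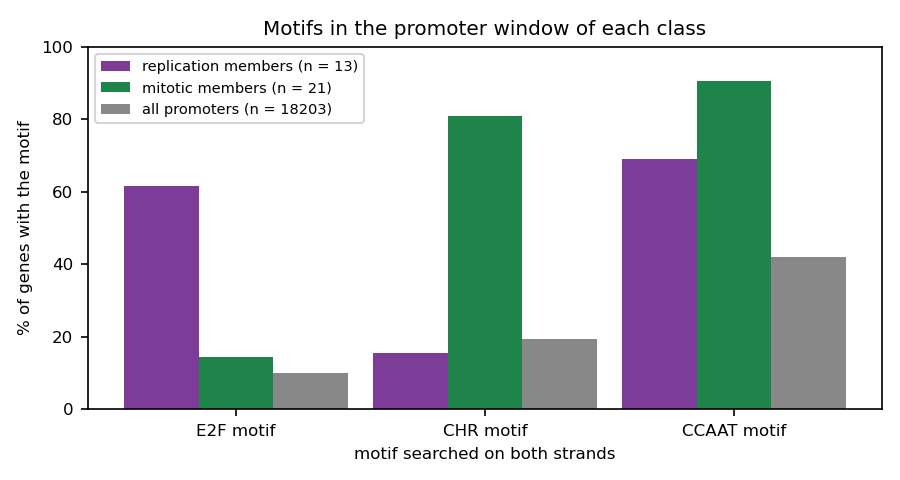
Share of genes (y axis, percent) whose promoter window held E2F, CHR or CCAAT letters (x axis), for the replication members, the mitotic members and all promoters in the tables. E2F letters were most frequent in the replication windows (61.5%) and CHR letters in the mitotic windows (81.0%).

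Depth was close between the diets, with 17647882 to 20585366 gene counts per high fat high sugar library and 16565335 to 20005873 per chow library. Levels are counts scaled to library size (CPM) with library sizes scaled by TMM, and all tests are edgeR's quasi-likelihood test over 12949 genes with adjusted p under 0.05 as the threshold. Where 3 values of a diet are listed, they are those of replicates 1, 2 and 3 in that order. Albumin took 3.05% to 7.27% of gene counts in high fat high sugar libraries and 6.53% to 8.04% in chow libraries. High fat high sugar replicate 2 stood apart, with the lowest albumin share and a TMM factor of 1.26, against 1.02 and 1.01 in replicates 1 and 3 of that diet. Whether each library came from its own animal is not in the labels, and the p-values reflect the spread of these samples, which may be technical.

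More cell cycle genes were higher than lower in high fat high sugar livers. Of 47 members tested, 20 were higher and 1, the thymidine kinase gene Tk1, was lower, against 11.0% of all tested genes higher and 3.61% lower. The median log2 fold change was 1.25 over the members and -0.02 over all tested genes. The sign was positive for 44 members and negative for Tk1, E2f1 and Cdk2, and the sign of Cdk2 turned when library size alone scaled the counts. All 3 high fat high sugar libraries lay above all 3 chow libraries in 34 of the 47, against 21.5% of all tested genes, and below them in 2, Tk1 and E2f1, against 18.0%. Given these shares, separate groups of a single gene, as named below, are a description and not a call. Mitotic genes made up 14 of the 20 higher members, replication genes 4 and G1/S regulators 2.

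These counts lean on how many reads the members had. Only 26 of the 47 passed the filter on low counts through the chow libraries alone, and 9 of those 26 were past the threshold. The other 21 passed only because of their level in high fat high sugar livers, so a difference was built into their passing, and 12 of them were past the threshold. Of the 25 mitotic genes tested, 8 passed through chow alone, 3 of them higher, and 17 did not, 11 of them higher. Those 3 were Mki67, Top2a and Cdk1, so the calls of all other higher mitotic members carry this limit. Among the higher replication members it applies to Uhrf1. Without any filter all 49 members were tested and 21 were higher and 1 lower, against 8.17% and 2.83% of 17877 genes. The one added was Ttk, a spindle checkpoint kinase, with 9, 14 and 12 reads in high fat high sugar libraries, against 1, 2 and 2 in chow libraries. Mybl2, the gene of B-Myb, also missed the filter, with 5, 14 and 5 reads in high fat high sugar libraries, against 5, 3 and 3 in chow libraries. No high fat high sugar library had a member at or under 3 reads, whereas the chow libraries had 2, 5 and 6 such members.

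Individual libraries decided part of the calls. Without high fat high sugar replicate 1 the higher members numbered 12, and without replicate 2, the library that stood apart, they numbered 18. Without chow replicate 1 the number was 16 and without chow replicate 2 it was 6. Without chow replicate 3 no member passed, and over all genes the test then made 4 higher and 2 lower calls, while 29 members were under an unadjusted p of 0.05 and 45 had a positive sign. Mcm5, Mcm6, Uhrf1, Tk1, Ccnd2, Top2a and Tpx2 lost their calls only without chow replicate 3, among all alternatives run. With limma-voom in place of edgeR, 17 of the 21 calls were kept, and Aurkb, Cdc20, Cenpf and E2f8 were lost.

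**Figure D2:**
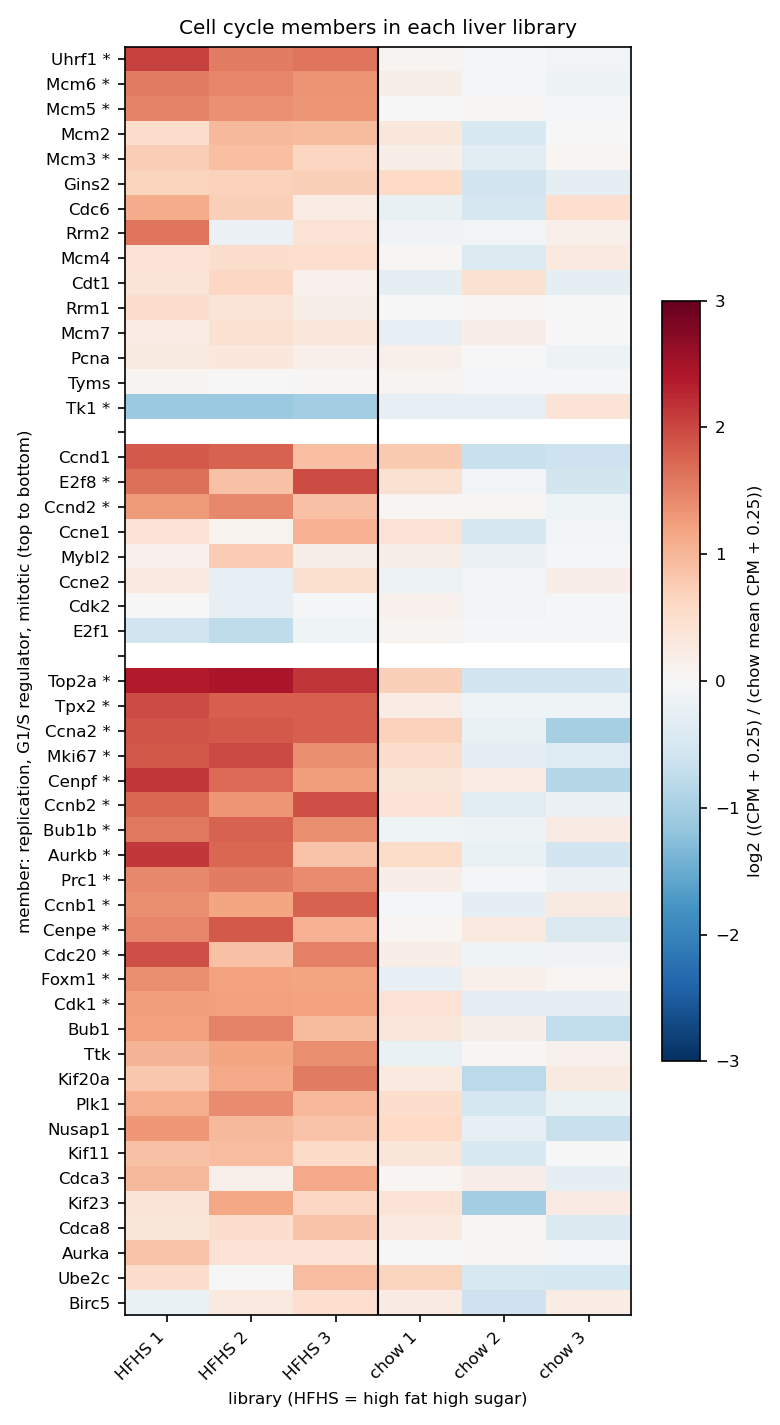
Each of the 49 members (y axis) in each library (x axis), coloured by the log2 ratio of its CPM to the chow mean, with 0.25 CPM added to both; an asterisk marks adjusted p under 0.05. The mitotic block is above the chow mean in nearly every high fat high sugar cell, 25, 25 and 26 of 26 genes in replicates 1, 2 and 3, and Tk1 is the clear exception at the foot of the replication block.

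Of the helicase genes, Mcm3, Mcm5 and Mcm6 rose. Mcm6 stood at 12.3, 11.7 and 10.8 CPM in high fat high sugar libraries, against 4.67, 3.96 and 3.64 CPM in chow libraries, a log2 fold change of 1.50 ± 0.16 (SE; edgeR adjusted p = 0.00775). Mcm5 stood at 6.35, 5.85 and 5.59 CPM in high fat high sugar libraries, against 2.11, 2.14 and 2.02 CPM in chow libraries, a log2 fold change of 1.50 ± 0.19 (SE; edgeR adjusted p = 0.00868). In both genes the lowest high fat high sugar library was more than 2 times the highest chow library. Mcm3 stood at 7.80, 8.74 and 7.21 CPM in high fat high sugar libraries, against 5.23, 3.63 and 4.78 CPM in chow libraries, a log2 fold change of 0.80 ± 0.19 (SE; edgeR adjusted p = 0.0342). The groups of Mcm3 were separate but closer together, and its call was lost under 6 of 14 alternatives, 5 of them a library left out, whereas Mcm5 and Mcm6 lost theirs under 1.

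The other helicase subunits did not pass. In each, all high fat high sugar libraries lay above all chow libraries, which also held for 21.5% of all tested genes. Mcm2 stood at 5.73, 7.89 and 7.71 CPM in high fat high sugar libraries, against 4.95, 2.75 and 3.91 CPM in chow libraries, a log2 fold change of 0.88 ± 0.26 (SE; edgeR adjusted p = 0.0587), and DESeq2, upper quartile scaling and scaling by library size alone put it past the threshold. Mcm4 stood at 8.37, 9.01 and 8.83 CPM in high fat high sugar libraries, against 6.28, 4.56 and 7.54 CPM in chow libraries, a log2 fold change of 0.51 ± 0.20 (SE; edgeR adjusted p = 0.127). Mcm7 stood at 12.2, 14.4 and 13.2 CPM in high fat high sugar libraries, against 8.79, 11.9 and 10.4 CPM in chow libraries, a log2 fold change of 0.35 ± 0.15 (SE; edgeR adjusted p = 0.160). The 6 subunits form a ring with 1 copy of each, and their summed level was 54.5 ± 2.61 CPM in high fat high sugar livers and 31.1 ± 1.85 CPM in chow livers (SD, n = 3 each), a ratio of 1.75. Exons of Mcm7 share 7.25% of their bases with Ap4m1, whose log2 fold change was -0.18 ± 0.17.

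The loading and assembly factors had few reads. Cdc6, which recruits the helicase, stood at 1.34, 0.962 and 0.615 CPM in high fat high sugar libraries, against 0.389, 0.275 and 0.808 CPM in chow libraries, a log2 fold change of 1.01 ± 0.50 (SE; edgeR adjusted p = 0.207). Chow replicate 3 lay above high fat high sugar replicate 3, so its groups overlapped. Cdt1, its partner in loading, stood at 3.46, 4.12 and 2.85 CPM in high fat high sugar libraries, against 2.06, 3.63 and 2.09 CPM in chow libraries, a log2 fold change of 0.42 ± 0.30 (SE; edgeR adjusted p = 0.368). Gins2, a subunit of the GINS complex that activates the helicase, stood at 1.14, 1.15 and 1.17 CPM in high fat high sugar libraries, against 1.06, 0.330 and 0.471 CPM in chow libraries, a log2 fold change of 0.88 ± 0.45 (SE; edgeR adjusted p = 0.218). Its groups were separate, but 67.3% of its exon bases lie in exons of Gse1, and the strand setting of the counting is not given in the sources used here.

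Pcna, the sliding clamp of the polymerases, was the replication member with the highest level per kilobase of exon, 12.3 CPM per kb in high fat high sugar livers and 10.4 CPM per kb in chow livers. It stood at 30.3, 30.9 and 27.5 CPM in high fat high sugar libraries, against 27.5, 24.6 and 22.6 CPM in chow libraries, a log2 fold change of 0.25 ± 0.11 (SE; edgeR adjusted p = 0.180). The groups did not overlap but lay next to each other. Uhrf1, which carries DNA methylation over to the new strand, had the highest log2 fold change of the replication class. Its levels were 2.89, 1.96 and 2.07 CPM in high fat high sugar libraries, against 0.556, 0.495 and 0.471 CPM in chow libraries, a log2 fold change of 2.16 ± 0.31 (SE; edgeR adjusted p = 0.0106). Every high fat high sugar library was more than 3 times any chow library.

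Of the nucleotide supply genes, Tk1 passed the test, and Rrm1, Rrm2 and Tyms did not. Rrm1, the large subunit of ribonucleotide reductase, stood at 18.4, 16.7 and 14.4 CPM in high fat high sugar libraries, against 12.6, 13.0 and 12.6 CPM in chow libraries, a log2 fold change of 0.38 ± 0.13 (SE; edgeR adjusted p = 0.0865). Rrm2, the small subunit, stood at 18.7, 5.31 and 7.99 CPM in high fat high sugar libraries, against 5.56, 5.66 and 6.73 CPM in chow libraries, a log2 fold change of 0.83 ± 0.44 (SE; edgeR adjusted p = 0.243). Its mean rested on replicate 1 of the high fat high sugar diet, since replicate 2 of that diet was below every chow library. Tyms, which makes thymidylate from deoxyuridylate, stood at 8.37, 7.85 and 8.10 CPM in high fat high sugar libraries, against 8.40, 7.70 and 7.74 CPM in chow libraries, a log2 fold change of 0.03 ± 0.14 (SE; edgeR adjusted p = 0.909). Its 6 libraries lay within a narrow band, and the sign turned without chow replicate 2.

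Tk1, the cytosolic thymidine kinase that salvages thymidine, fell. It stood at 15.8, 15.8 and 16.4 CPM in high fat high sugar libraries, against 28.8, 28.7 and 45.3 CPM in chow libraries, a log2 fold change of -1.10 ± 0.19 (SE; edgeR adjusted p = 0.0149). All high fat high sugar libraries were close to each other and below all chow libraries, of which replicate 3 was highest. Tk1 lies at chr11:117815526-117826092 (GENCODE M21, GRCm38) beside Afmid, a kynurenine pathway enzyme gene on the opposite strand, and shares 83 exon bases with it, 1.60% of its own. Afmid was picked for this overlap after its values were seen. Afmid stood at 84.6, 74.9 and 101 CPM in high fat high sugar libraries, against 191, 183 and 271 CPM in chow libraries, a log2 fold change of -1.31 ± 0.20 (SE; edgeR adjusted p = 0.0111). Tk1 came to 18.6%, 21.1% and 16.3% of the Afmid level in high fat high sugar libraries and to 15.0%, 15.7% and 16.7% in chow libraries. The part of Afmid reads in the Tk1 counts was not tested.

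**Figure D3:**
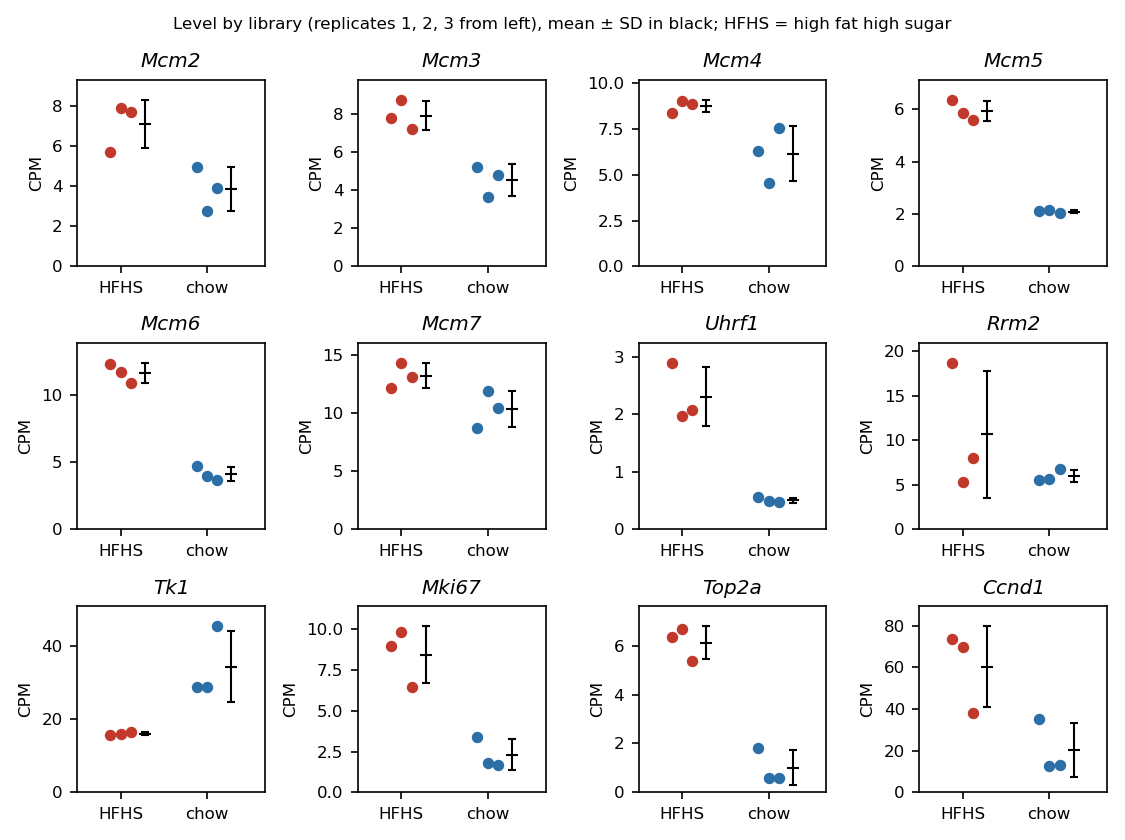
CPM (y axis, from 0) of 12 members in each high fat high sugar and chow library (x axis), with replicates 1, 2 and 3 from left to right and the mean ± SD in black. Mcm5, Mcm6, Uhrf1, Mki67 and Top2a are separated by wide gaps, Rrm2 is highest in 1 library at 18.7 CPM, and Tk1 runs the other way.

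Among the regulators of entry into S phase, Ccnd2 and E2f8 rose. Ccnd2, a D-type cyclin, stood at 12.1, 13.5 and 9.11 CPM in high fat high sugar libraries, against 5.06, 5.06 and 4.44 CPM in chow libraries, a log2 fold change of 1.25 ± 0.19 (SE; edgeR adjusted p = 0.0114). Ccnd1, the D-type cyclin that hepatocytes raise on leaving rest, stood at 73.4, 69.7 and 37.9 CPM in high fat high sugar libraries, against 35.0, 12.8 and 13.2 CPM in chow libraries, a log2 fold change of 1.57 ± 0.46 (SE; edgeR adjusted p = 0.0666). Its groups were separate by a small margin, between high fat high sugar replicate 3 and chow replicate 1. Without chow replicate 1 Ccnd1 passed, with a log2 fold change of 2.21 (edgeR adjusted p = 0.0246), and DESeq2 and scaling by library size alone also put it past the threshold. Per kilobase of exon Ccnd1 had the highest level of the members in high fat high sugar livers, 12.8 CPM per kb, against 4.32 CPM per kb in chow livers. Exons of Ccnd1 share 23.4% of their bases with LTO1 on the opposite strand, a gene with no counts under that name.

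The cyclin E genes and their kinase did not pass. Ccne1 stood at 1.24, 0.962 and 2.07 CPM in high fat high sugar libraries, against 1.28, 0.550 and 0.808 CPM in chow libraries, a log2 fold change of 0.67 ± 0.44 (SE; edgeR adjusted p = 0.332). Ccne2 stood at 2.79, 1.85 and 3.24 CPM in high fat high sugar libraries, against 2.00, 2.09 and 2.63 CPM in chow libraries, a log2 fold change of 0.22 ± 0.29 (SE; edgeR adjusted p = 0.632). Cdk2, the kinase they activate, stood at 13.7, 11.5 and 13.2 CPM in high fat high sugar libraries, against 15.0, 13.0 and 13.1 CPM in chow libraries, a log2 fold change of -0.10 ± 0.13 (SE; edgeR adjusted p = 0.635). All 3 genes had overlapping groups. Of the E2F genes, E2f8 passed and E2f1 did not. E2f8, an atypical E2F that represses E2F targets, stood at 8.94, 5.08 and 11.1 CPM in high fat high sugar libraries, against 3.73, 2.53 and 1.75 CPM in chow libraries, a log2 fold change of 1.63 ± 0.37 (SE; edgeR adjusted p = 0.0280). Exons of E2f8 share 11.2% of their bases with Gm2788 on the opposite strand. Gm2788 stood at 24.6, 18.4 and 35.4 CPM in high fat high sugar libraries, against 19.9, 14.0 and 8.55 CPM in chow libraries. Its log2 fold change was 0.88 ± 0.35 and did not pass. The part of Gm2788 reads in the E2f8 counts was not tested. E2f1, an activating E2F, stood at 3.41, 2.92 and 4.69 CPM in high fat high sugar libraries, against 5.51, 4.95 and 5.05 CPM in chow libraries, a log2 fold change of -0.50 ± 0.23 (SE; edgeR adjusted p = 0.176). Its high fat high sugar libraries were all below the chow libraries, with the nearest pair close together.

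The mitotic genes were higher in high fat high sugar livers in 14 of 25 tests, and in 8 without high fat high sugar replicate 1, 2 without chow replicate 2 and 0 without chow replicate 3, where 18 were under an unadjusted p of 0.05. All 25 tested members had a positive log2 fold change, between 0.26 and 2.57 with a median of 1.77, and 21 were under an unadjusted p of 0.05. Their counts were low, with a median of 34.5, 39 and 32 reads per gene in high fat high sugar libraries, against 16, 8.5 and 6.5 in chow libraries. Mki67, the Ki-67 antigen of cycling cells, stood at 8.99, 9.85 and 6.48 CPM in high fat high sugar libraries, against 3.39, 1.81 and 1.68 CPM in chow libraries, a log2 fold change of 1.87 ± 0.31 (SE; edgeR adjusted p = 0.0140). Top2a, the topoisomerase that untangles sister chromosomes, stood at 6.35, 6.66 and 5.36 CPM in high fat high sugar libraries, against 1.84, 0.605 and 0.606 CPM in chow libraries, a log2 fold change of 2.57 ± 0.42 (SE; edgeR adjusted p = 0.0134). Each was among the 8 that passed the filter through chow alone, and in each chow replicate 1 was the highest chow library. Without it the log2 fold change of Top2a was 3.32.

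The cyclins and the kinase that start mitosis were higher. Ccna2, the cyclin of S phase and G2, stood at 3.62, 3.46 and 3.35 CPM in high fat high sugar libraries, against 1.45, 0.660 and 0.269 CPM in chow libraries, a log2 fold change of 2.10 ± 0.48 (SE; edgeR adjusted p = 0.0287). Ccnb1, the main mitotic cyclin, stood at 0.878, 0.731 and 1.23 CPM in high fat high sugar libraries, against 0.167, 0.110 and 0.269 CPM in chow libraries, a log2 fold change of 2.36 ± 0.47 (SE; edgeR adjusted p = 0.0202), from 58 reads over the 3 high fat high sugar libraries and 9 over the 3 chow libraries. Ccnb2, its relative, stood at 2.17, 1.58 and 2.57 CPM in high fat high sugar libraries, against 0.723, 0.330 and 0.404 CPM in chow libraries, a log2 fold change of 2.09 ± 0.39 (SE; edgeR adjusted p = 0.0175). Cdk1, their catalytic partner, stood at 2.84, 2.81 and 2.74 CPM in high fat high sugar libraries, against 1.50, 0.825 and 0.808 CPM in chow libraries, a log2 fold change of 1.41 ± 0.32 (SE; edgeR adjusted p = 0.0270). None of the 4 had overlapping groups, and Cdk1 was nearly level over the high fat high sugar libraries. Exons of Ccna2 share 12.5% of their bases with Exosc9, whose log2 fold change was 0.10 ± 0.12. Without chow replicate 1 the log2 fold change of Ccna2 was 2.84.

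Foxm1, the factor that raises genes of G2 and M, stood at 1.39, 1.19 and 1.17 CPM in high fat high sugar libraries, against 0.278, 0.440 and 0.404 CPM in chow libraries, a log2 fold change of 1.73 ± 0.34 (SE; edgeR adjusted p = 0.0198). Its 3 high fat high sugar libraries were more than 2 times any chow library. Tpx2, which activates Aurora A on the spindle, stood at 2.22, 1.96 and 1.96 CPM in high fat high sugar libraries, against 0.501, 0.330 and 0.337 CPM in chow libraries, a log2 fold change of 2.37 ± 0.32 (SE; edgeR adjusted p = 0.0101). Tpx2 had the smallest adjusted p of the mitotic class. However, Foxm1, Tpx2 and Prc1 all passed the filter on low counts only through their level in high fat high sugar livers. Prc1, which bundles microtubules at the midzone for cell division, stood at 2.17, 2.35 and 2.12 CPM in high fat high sugar libraries, against 0.779, 0.605 and 0.539 CPM in chow libraries, a log2 fold change of 1.77 ± 0.29 (SE; edgeR adjusted p = 0.0129). Exons of Prc1 share 11.1% of their bases with Rccd1, which did not pass, with a log2 fold change of 0.81 ± 0.26.

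Of the Aurora and Polo kinases, Aurkb passed and Aurka and Plk1 did not. Aurkb, the kinase of the chromosomal passenger complex, stood at 1.81, 1.31 and 0.615 CPM in high fat high sugar libraries, against 0.445, 0.165 and 0.0673 CPM in chow libraries, a log2 fold change of 2.39 ± 0.65 (SE; edgeR adjusted p = 0.0473), from 80 reads over the 3 high fat high sugar libraries and 12 over the 3 chow libraries. Its highest high fat high sugar library was about 3 times its lowest, and the log2 fold change was 3.30 without chow replicate 1. Aurka, the kinase of the spindle poles, stood at 2.01, 1.42 and 1.40 CPM in high fat high sugar libraries, against 1.00, 1.04 and 0.943 CPM in chow libraries, a log2 fold change of 0.69 ± 0.29 (SE; edgeR adjusted p = 0.152). Plk1, which acts from entry to exit of mitosis, stood at 1.03, 1.35 and 0.950 CPM in high fat high sugar libraries, against 0.612, 0.165 and 0.269 CPM in chow libraries, a log2 fold change of 1.65 ± 0.49 (SE; edgeR adjusted p = 0.0600). The groups of all 3 kinases were separate. Birc5 and Cdca8 code for partners of Aurkb in the passenger complex, and their log2 fold changes were 0.26 ± 0.36 and 0.72 ± 0.35. Birc5 overlapped between the diets, and its sign turned without chow replicate 2.

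The checkpoint and exit genes were mixed in their calls. Bub1b, a brake on anaphase, stood at 2.43, 2.77 and 2.07 CPM in high fat high sugar libraries, against 0.556, 0.550 and 0.808 CPM in chow libraries, a log2 fold change of 1.93 ± 0.31 (SE; edgeR adjusted p = 0.0126). Bub1, a kinase of the same checkpoint, stood at 0.723, 0.924 and 0.559 CPM in high fat high sugar libraries, against 0.278, 0.220 and 0 CPM in chow libraries, a log2 fold change of 2.06 ± 0.67 (SE; edgeR adjusted p = 0.0771). Chow replicate 3 had no Bub1 read, and the floor of 3 reads there corresponds to 0.202 CPM. Cdc20, the activator of the anaphase-promoting complex, stood at 2.43, 1.04 and 1.73 CPM in high fat high sugar libraries, against 0.556, 0.385 and 0.404 CPM in chow libraries, a log2 fold change of 1.92 ± 0.43 (SE; edgeR adjusted p = 0.0263). Ube2c, the ubiquitin-conjugating enzyme of that complex, stood at 1.24, 0.770 and 1.73 CPM in high fat high sugar libraries, against 1.39, 0.495 and 0.471 CPM in chow libraries, a log2 fold change of 0.63 ± 0.52 (SE; edgeR adjusted p = 0.445). Its chow replicate 1 was above 2 high fat high sugar libraries. Cdca3, which triggers entry into mitosis, had a log2 fold change of 0.91 ± 0.37 with overlapping groups.

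The kinetochore genes Cenpe and Cenpf rose, and the motors Kif11, Kif20a and Kif23 and the spindle gene Nusap1 did not pass. Cenpe, a kinetochore motor, stood at 1.45, 1.92 and 1.01 CPM in high fat high sugar libraries, against 0.389, 0.495 and 0.202 CPM in chow libraries, a log2 fold change of 1.98 ± 0.43 (SE; edgeR adjusted p = 0.0256). Cenpf, a large kinetochore protein, stood at 1.70, 1.23 and 0.838 CPM in high fat high sugar libraries, against 0.334, 0.275 and 0 CPM in chow libraries, a log2 fold change of 2.53 ± 0.67 (SE; edgeR adjusted p = 0.0446), from 80 reads over the 3 high fat high sugar libraries and 11 over the 3 chow libraries. No read of Cenpf was counted in chow replicate 3. Kif20a, a motor of cell division, stood at 1.70, 2.19 and 3.02 CPM in high fat high sugar libraries, against 1.11, 0.385 and 1.08 CPM in chow libraries, a log2 fold change of 1.43 ± 0.44 (SE; edgeR adjusted p = 0.0662), and shares 29.3% of its exon bases with Cdc23. Kif11, the motor that pushes the spindle poles apart, had a log2 fold change of 0.91 ± 0.31 (edgeR adjusted p = 0.0908). Kif23, a motor of the midzone, had 0.95 ± 0.52 (edgeR adjusted p = 0.248), and Nusap1, a spindle microtubule protein, 1.31 ± 0.47 (edgeR adjusted p = 0.10). The groups of Kif11, Kif20a and Nusap1 were separate and those of Kif23 overlapped. The call of Cenpf was lost under 7 of 14 alternatives, limma-voom among them (edgeR adjusted p up to 0.108 with a library left out), and that of Cenpe under 4, each a library left out.

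**Figure D4:**
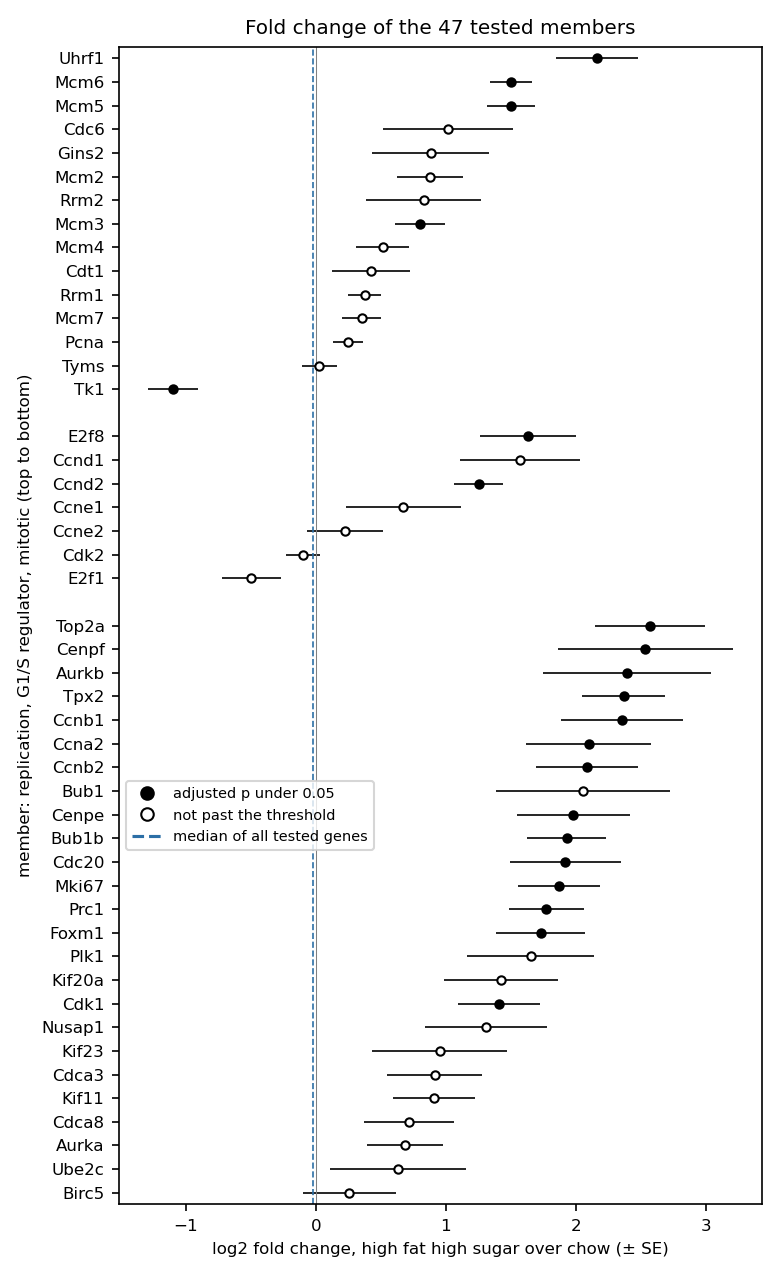
Log2 fold change, high fat high sugar over chow, with its SE (x axis) for the 47 tested members (y axis) in the replication, G1/S regulator and mitotic classes; filled points have adjusted p under 0.05 and the dashed line is the median of all tested genes, -0.02. The mitotic points all lie right of that line, up to 2.57 for Top2a, while Tk1, at -1.10, is the one filled point to its left.

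Class levels were read in each library, with 0.25 CPM added to each level and to the chow mean before the log2 ratio. Relative to their own chow mean, the mitotic members had a median log2 ratio of 1.34, 1.22 and 1.20 across the high fat high sugar libraries, against 0.32, -0.20 and -0.19 across the chow libraries. For the replication members it was 0.54, 0.62 and 0.40 in the high fat high sugar libraries, against 0.03, -0.04 and -0.01 in the chow libraries. For the G1/S regulators it was 0.34, 0.43 and 0.68 in the high fat high sugar libraries, against 0.16, -0.08 and -0.08 in the chow libraries. All 3 classes were separate between the diets in every library. The gap between the group means was 1.28 for the mitotic class, 0.53 for the replication class and 0.49 for the G1/S class, and whether these gaps differ was not tested. The added 0.25 CPM shrinks the ratios of genes with low levels most. Since the mitotic members had the lowest counts, the gaps are not on an equal footing.

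Summed over genes, the mitotic members reached 56.7 ± 2.52 CPM in high fat high sugar livers and 19.1 ± 6.05 CPM in chow livers (SD, n = 3 each), a ratio of 2.97. The replication members reached 143 ± 9.33 CPM in high fat high sugar livers and 121 ± 9.09 CPM in chow livers, a ratio of 1.18 with Tk1 included. The G1/S regulators reached 101 ± 17.6 CPM in high fat high sugar livers and 50.1 ± 15.5 CPM in chow livers, a ratio of 2.02 in which Ccnd1 alone averaged 60.3 CPM in high fat high sugar livers and 20.3 CPM in chow livers. Chow replicate 1 was the highest chow library in the mitotic sum, at 26.0 CPM, against 15.1 and 16.0 CPM in chow replicates 2 and 3, and 22 of its 26 mitotic genes were above the chow mean. It was also the highest chow library in the G1/S sum, at 67.9 CPM, against 41.1 CPM in each of the other two. After TMM scaling the 3 high fat high sugar libraries differed little in the mitotic sum, with 58.7, 57.5 and 53.9 CPM.

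**Figure D5:**
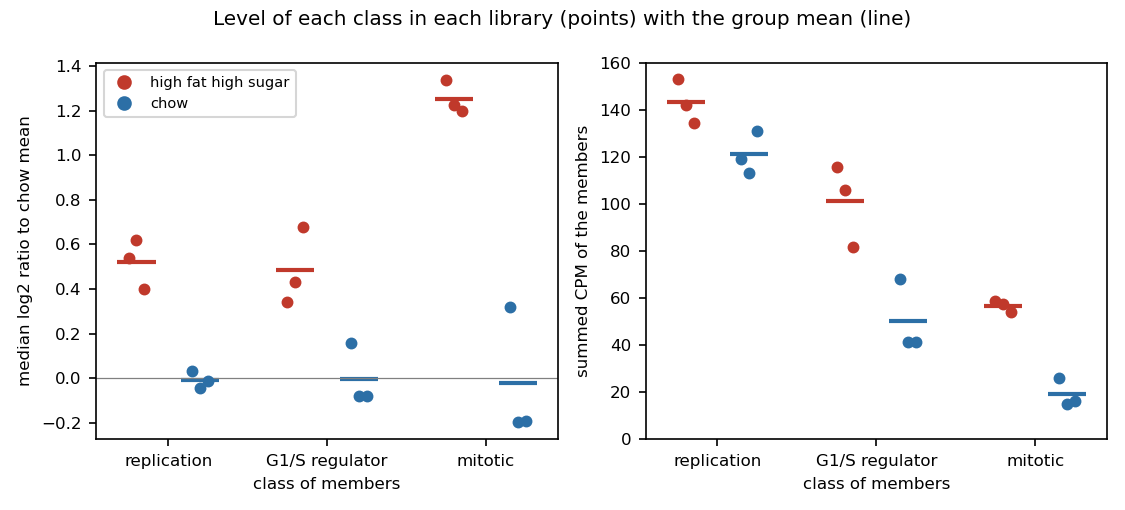
Level of each class (x axis) in each library, as the median log2 ratio of its members to the chow mean with 0.25 CPM added to both (left) and as their summed CPM (right, from 0); points are libraries, lines are group means, red is high fat high sugar and blue is chow. The mitotic points lie at 1.20 to 1.34 in high fat high sugar livers, against -0.20 to 0.32 in chow livers.

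Genes of the same processes outside the 49 were read from 4 lists of 129 genes. Of 53 other mitotic genes, 44 were tested, and 24 were higher (54.5%) and 0 lower, against 11.0% and 3.61% of all tested genes. Their median log2 fold change was 1.37. Only 18 of the 44 passed the filter on low counts through the chow libraries alone, 6 of them higher, and the other 26, 18 of them higher, passed through their level in high fat high sugar livers, so the count and the median are a description. The higher ones numbered 14 without high fat high sugar replicate 1, 9 once chow replicate 1 was left out, 3 without replicate 2 of chow and 0 without its replicate 3. Ckap2l, a spindle protein, had 24, 48 and 24 reads in high fat high sugar libraries and 3, 5 and 2 in chow libraries, a log2 fold change of 2.89 ± 0.41 (SE; edgeR adjusted p = 0.0103). Its relative Ckap2 had 27, 21 and 36 reads in high fat high sugar libraries and 3, 3 and 2 in chow libraries, a log2 fold change of 3.10 ± 0.51 (SE; edgeR adjusted p = 0.0135). Tacc3, a spindle protein that works with clathrin, stood at 3.05, 3.58 and 3.85 CPM in high fat high sugar libraries, against 1.39, 1.21 and 1.41 CPM in chow libraries, a log2 fold change of 1.38 ± 0.24 (SE; edgeR adjusted p = 0.0146). None of these genes had overlapping groups. In the negative direction the smallest p was that of Cks1b, a Cdk-binding subunit, with a log2 fold change of -0.53 ± 0.20 (edgeR adjusted p = 0.114).

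Of 37 other replication genes, 35 were tested, 4 were higher and 0 lower, and the median log2 fold change was 0.08. Their share of higher genes, 11.4%, was close to the 11.0% of all tested genes. Of the 35, 32 passed the filter on low counts through the chow libraries alone, 2 of them higher. The other 3 passed only through their level in high fat high sugar livers, and 2 of them, Pole2 and Clspn, were higher, so a difference was built into their passing. Timeless, a fork protection protein, stood at 4.18, 4.39 and 3.46 CPM in high fat high sugar libraries, against 2.00, 2.47 and 2.02 CPM in chow libraries, a log2 fold change of 0.89 ± 0.22 (SE; edgeR adjusted p = 0.0369). Pole2, a subunit of DNA polymerase epsilon, had 16, 25 and 16 reads in high fat high sugar libraries, against 2, 0 and 3 in chow libraries (edgeR adjusted p = 0.0227). Clspn, an adaptor of the replication checkpoint, had 19, 23 and 19 reads in high fat high sugar libraries, against 5, 1 and 0 in chow libraries (edgeR adjusted p = 0.0301). The fourth, Lig1, the ligase that joins Okazaki fragments, had a log2 fold change of 0.75 ± 0.20 (edgeR adjusted p = 0.0474) and was named after its value was seen. Mcm10, a helicase activator, had the smallest p of the negative ones and stood at 44.6, 26.2 and 85.8 CPM in high fat high sugar libraries, against 86.1, 121 and 84.1 CPM in chow libraries, a log2 fold change of -0.90 ± 0.42 (SE; edgeR adjusted p = 0.191).

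Among 23 inhibitors and brakes of the cycle, 21 were tested, 2 were higher and 1 lower. These shares, 9.52% and 4.76%, were close to the 11.0% and 3.61% of all tested genes, and the named genes are given for their own values. Without chow replicate 2, and without chow replicate 3, none was higher. Cdkn2c, which codes for the Cdk4 and Cdk6 inhibitor p18, stood at 10.7, 17.0 and 14.4 CPM in high fat high sugar libraries, against 5.12, 3.02 and 2.22 CPM in chow libraries, a log2 fold change of 2.01 ± 0.32 (SE; edgeR adjusted p = 0.0129). Rbl1, which codes for the pocket protein p107 of the DREAM complex, stood at 4.13, 7.24 and 4.02 CPM in high fat high sugar libraries, against 2.73, 1.32 and 1.41 CPM in chow libraries, a log2 fold change of 1.49 ± 0.38 (SE; edgeR adjusted p = 0.0380). Tob1, an antiproliferative protein, stood at 116, 83.2 and 136 CPM in high fat high sugar libraries, against 204, 204 and 218 CPM in chow libraries, a log2 fold change of -0.90 ± 0.19 (SE; edgeR adjusted p = 0.0217). In all 3 genes the groups were separate, Tob1 in the opposite direction. Cdkn1a, which codes for the inhibitor p21, did not pass, with 6.30, 16.2 and 6.09 CPM in high fat high sugar libraries, against 2.39, 1.26 and 4.31 CPM in chow libraries, a log2 fold change of 1.87 ± 0.55 (SE; edgeR adjusted p = 0.0643), and was named after its value was seen.

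Of 16 other G1 cyclins, kinases and DREAM or MuvB genes, all tested, 1 was higher and 1 lower (6.25% each). The shares of all tested genes were 11.0% and 3.61%, so the named genes are given for their own values. The median log2 fold change of the list was -0.11. Tfdp2, a dimer partner of E2F factors, stood at 16.1, 14.6 and 13.4 CPM in high fat high sugar libraries, against 31.0, 29.3 and 35.6 CPM in chow libraries, a log2 fold change of -1.12 ± 0.13 (SE; edgeR adjusted p = 0.00775). Every high fat high sugar library of Tfdp2 was far below every chow library. E2f2, an activating E2F, stood at 3.41, 2.81 and 2.29 CPM in high fat high sugar libraries, against 1.45, 1.10 and 0.808 CPM in chow libraries, a log2 fold change of 1.33 ± 0.31 (SE; edgeR adjusted p = 0.0312). Cdc25a, the phosphatase that activates Cdk2, had a log2 fold change of 0.63 ± 0.22 (edgeR adjusted p = 0.0918).

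Markers of the cell types that could hold the cycling cells moved with diet as well. The 9 macrophage markers reported summed to 809 to 1536 CPM in high fat high sugar libraries and 266 to 372 CPM in chow libraries, and these 9 were higher. The 8 stellate and myofibroblast markers summed to 217 to 543 CPM in high fat high sugar libraries and 72.5 to 92.7 CPM in chow libraries, with 7 higher, and the 8 bile duct markers to 185 to 306 CPM in high fat high sugar libraries and 39.9 to 59.0 CPM in chow libraries, with 6 higher. The 8 endothelial markers summed to 272 to 329 CPM in high fat high sugar libraries and 159 to 202 CPM in chow libraries, with 5 higher. The 9 T, NK and B cell markers in the tables summed to 6.87 to 13.4 CPM in high fat high sugar libraries and 3.43 to 6.56 CPM in chow libraries, with 1 of 7 tested higher. The 8 erythroid markers summed to 89.3 to 184 CPM in high fat high sugar libraries and 222 to 246 CPM in chow libraries, with 2 of 5 tested lower and none higher. Alas2 made up much of that sum, with a mean of 63.8 CPM in high fat high sugar livers and 188 CPM in chow livers. Tfrc had a positive log2 fold change, 0.91 ± 0.41, and did not pass. Rhag was not tested, with no read in any high fat high sugar library and 1, 0 and 3 reads in chow libraries. The 9 hepatocyte markers summed to 40505 to 94172 CPM in high fat high sugar libraries and 102445 to 129319 CPM in chow libraries, with 2 lower.

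Beside these sums, the TMM-scaled mitotic sums of high fat high sugar replicates 1, 2 and 3 were close, at 58.7, 57.5 and 53.9 CPM. Their TMM factors were 1.02, 1.26 and 1.01. By library size alone the mitotic sum would be highest in replicate 2, so its closeness and order depend on the scaling. Which scaling is right was not tested. Replicate 2 had the highest macrophage sum, 1536 CPM against 914 and 809 CPM in replicates 1 and 3 of that diet. It also had the highest stellate sum, 543 CPM against 272 and 217 CPM. Within chow, replicate 1 had the highest macrophage, stellate and lymphocyte sums and the highest mitotic sum. It had the lowest endothelial and erythroid sums, while the bile duct sum was highest in replicate 2 and the hepatocyte sum in replicate 3. The part of each cell type in the cell cycle values was not tested.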

How the data were processed

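Polyadenylated liver RNA of 6 libraries was sequenced with a stranded kit, per the labels' protocols, and the reads were aligned with STAR to mm10, per the submitters' processing notes. How reads were counted (program, annotation, strand) is not given in the sources used here. As deposited, the values are raw counts per gene, 1 table per library. Rows for reads outside genes (7.74% to 10.6%) and ambiguous reads (0.615% to 0.862%) entered neither library sizes nor tests.

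Genes were filtered with filterByExpr (minimum count 10), which kept 12949 of 17877 genes with at least 1 count, scaled by TMM and tested for diet with edgeR's robust quasi-likelihood test (edgeR 4.0.16, limma 3.58.1, DESeq2 1.42.0 and R 4.3.3), with Benjamini-Hochberg adjustment over all tested genes at 0.05. The SE is the log2 fold change divided by the square root of F. CPM were computed from the counts with TMM-scaled sizes, and 3 counts correspond to 0.115 to 0.202 CPM, for counting error only. Fits were tested on simulated data. Exon overlaps came from GENCODE M21 and promoters from RefSeq GRCm38.p6. Groups came from the diet label. All pairs within a diet differed by more than sampling noise (chi-square per gene at least 24.9).

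The members and lists were chosen with earlier results of these data known. Of the macrophage list, 1 gene is not reported here. All members could be named, as could the 3 smallest p of each pathway list and the smallest p in its minority direction. Alternatives covered scaling, filter, test, replicate block and each library left out.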

Additional observations from a re-analysis of the deposited data

How the results depend on the processing

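Over 14 alternative settings, the sign of the tested members held except for Cdk2, Tyms and Birc5, while the number of calls varied. Scaling by library size alone moved the median of all genes by 0.27 on the log2 scale. Under it 200 genes were lower and 90.6% of calls were higher, against 75.3% with TMM. The class medians were 1.05 (replication), 0.92 (G1/S) and 2.05 (mitotic), the class levels differed by 0.77 (replication) and 0.69 (G1/S), and Cdk2 turned to 0.16. DESeq2 called 974 lower genes (65.0% of calls higher), with 4 inhibitors higher and 2 lower. The replication median was 0.89 with upper quartile scaling, 0.59 with limma-voom and 0.64 with the replicate block. limma-voom called 1 G1/S regulator and 1 inhibitor higher.

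Deviations of same-numbered libraries from their diet mean correlated at -0.25, -0.17 and 0.03, and those of other pairs at -0.08 to 0.24. With 3 libraries per diet, this cannot tell whether libraries of the same number were handled together. With the replicate block 282 genes were lower, 18 of 21 members kept their call (Mcm3, Cenpf and Foxm1 lost it), Ccnd1 passed with a log2 fold change of 1.67 (edgeR adjusted p = 0.0328), and 0 other replication genes, 12 other mitotic genes and 1 inhibitor were higher.

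Leaving out 1 library at a time gave 4 to 1664 higher and 2 to 772 lower genes. Higher members numbered 0 to 20 and lower ones 0 to 1, with 0 to 5 replication, 0 to 3 G1/S and 0 to 14 mitotic genes higher. Class medians were 0.54 to 0.81 (replication), 0.31 to 1.05 (G1/S) and 1.67 to 1.99 (mitotic). Other mitotic genes called higher numbered 0 to 19. Without chow replicate 2 the sign turned for Tyms, at -0.00396 in a range of -0.00396 to 0.0603, and for Birc5, at -0.0164 in a range of -0.0164 to 0.451. Among members that share no exon base with another counted gene, a set chosen after seeing the data, 14 of 32 tested were higher and 0 lower. That set still held Ccnd1, Top2a and Plk1, which share exon bases with annotated genes not counted under their annotated names. With the bases before the start alone, 9 mitotic windows held CHR letters and 6 replication windows held E2F letters. At this depth, chow replicates 1, 2 and 3 held 2, 5 and 6 members at or under 3 reads. The cause of these shifts was not tested.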
